A study of Mus musculus with 22 samples.

Results

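Glial RNA was followed through mouse libraries in which *Tsc1* was lost in cerebellar Purkinje cells (PCs), by the genes *Gfap*, *Apoe*, *Tnc* and *Csf1r*. They are 4 of 66494 loci, and 4 of the 1832 loci that the study's supplementary lists pair with a gene symbol. All 4 were selected on these samples, since the lists that name them hold genes that differed between genotypes in sorted PCs or in untreated TRAP libraries, or in the ratio of both. Their genotype differences without rapamycin are therefore given as a description, with no test. Those lists were not built on the rapamycin-treated libraries, though the genes were taken up with results of all libraries known.

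Total RNA was sequenced from 5 mutant and 5 control libraries of sorted PCs, where controls 144a and 144b share an animal number, and the labels do not say whether they are separate animals. The study gives different sample numbers for its sorted cells in different places, and all labelled libraries were used here. Translating ribosome affinity purification (TRAP), which pulls down tagged ribosomes with the RNA they carry, gave 12 further libraries, 3 each from controls, mutants, controls with rapamycin and mutants with rapamycin. Controls were *Tsc1*+/+ and mutants *Tsc1* fl/fl with L7Cre, all labelled C57BL/6. Sorted animals carried L7GFP, and TRAP animals, of either genotype, carried L7Cre and the Rosa26fsTRAP allele, so that Cre released an EGFP-tagged RPL10A in PCs. L7 is the *Pcp2* promoter, active in PCs, so neither recombination nor the tag was aimed at glia. The study's methods name different ages for sorted animals, and the labels give no age for single libraries, so ages may be mixed among them. The labels also give no rapamycin dose or schedule. The *Tsc1* locus, whose deleted exons would check the genotype labels, was not analysed here.

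Glial cells surround PCs. Bergmann glia are astroglia whose somata lie among PC bodies and whose processes wrap PC dendrites, and microglia are the resident macrophages of the tissue. *Gfap* encodes the intermediate filament of astroglia, which accumulates when these cells become reactive. *Apoe* encodes a lipid carrier that astroglia, and microglia in disease, secrete. *Tnc* encodes tenascin-C, a matrix glycoprotein of immature and reactive astroglia. *Csf1r* encodes the receptor for CSF1 and IL-34 on which microglia depend. Rapamycin inhibits mTORC1, the kinase complex that TSC1 and its partner TSC2 restrain.

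In GENCODE M21 on GRCm38, *Gfap* lies on chromosome 11 from 102887336 to 102900912 on the minus strand, and the assembled locus, XLOC_010513, matched the 9 exons of its reference transcript. *Apoe* lies at 19696109 to 19699188 on chromosome 7, minus strand, and XLOC_052424 shared splice junctions with a reference transcript of 5 exons. *Tnc* spans 63959785 to 64047015 on chromosome 4, minus strand, and XLOC_040475 shared junctions with a reference of 26 exons. A noncoding gene on the opposite strand, 8030451A03Rik, overlaps 176 exonic bases of *Tnc*, and without strand information fragments from these bases cannot be assigned to either gene. The promoters of *Gfap* and *Apoe* are shown because these genes moved together across the TRAP libraries. Each line gives, from RefSeq on GRCm38.p6, the 250 bases before the start on the minus strand, at chr11:102897201-102897450 and chr7:19699189-19699438, with motif matches in capitals. The RefSeq start of *Gfap* lies inside the GENCODE span given above, so its window does too.
Gfap: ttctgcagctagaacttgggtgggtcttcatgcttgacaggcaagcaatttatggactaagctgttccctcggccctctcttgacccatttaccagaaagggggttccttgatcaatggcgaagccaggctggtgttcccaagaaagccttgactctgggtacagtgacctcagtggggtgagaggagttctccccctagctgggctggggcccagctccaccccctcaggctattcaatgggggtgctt
Apoe: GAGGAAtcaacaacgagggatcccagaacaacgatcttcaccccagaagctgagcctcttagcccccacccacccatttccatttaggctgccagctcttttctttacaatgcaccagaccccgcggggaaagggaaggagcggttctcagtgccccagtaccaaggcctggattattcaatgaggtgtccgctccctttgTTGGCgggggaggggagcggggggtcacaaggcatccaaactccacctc
The motifs searched on both strands were STAT (TTCNNNGAA), the NF-I half-site (TTGGC), AP-1 (TGANTCA) and PU.1 (GAGGAA). The *Apoe* window held an NF-I half-site starting 49 bases before the start and a PU.1 match at its far end, 250 bases before. These letters occur in 41.5% and 23.3% of the 32851 promoters in the table, and STAT and AP-1 in 7.02% and 6.75%. The *Gfap* window held none of them, which says nothing about the factors themselves. Of the other starts, 2 more of *Apoe* and 2 of *Tnc* are listed, and NF-I and PU.1 matches were found in 1 window of each gene. *Csf1r* lies on another chromosome, and its reference transcript has 22 exons, with the opposite-strand gene *Hmgxb3* overlapping 873 exonic bases of the gene.

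Fragment numbers set the precision. Values are the deposited signal, an estimated fragment count divided by a size factor per library, and are called normalized fragments below. Sorted libraries held 43.3 to 86.3 M fragments and TRAP libraries 2.47 to 6.38 M. Glial genes rested on many fragments in the former and on few in the latter, and differed per M fragments too. *Gfap* had 149.3 to 407.4 per M in sorted controls and 4.08, 12.4 and 6.426 in TRAP controls. Untreated mutant TRAP replicate 3 stood apart. There, 1 fragment was worth 0.303 normalized fragments, against 0.557 to 1.96 in the other TRAP libraries, its 10 highest loci took 40.5% of the library against 58.3% to 72.6%, and 19758 loci were above 0 against 7973 to 14493. Control libraries with rapamycin had the fewest loci above 0, from 7973 to 10394. Differences below are on the log2(value + 1) scale, which understates changes of low genes, and come from limma fits over all loci with a mean of at least 2 in TRAP or 5 in sorted PCs. Loci counted as past the thresholds changed by more than 2-fold with an unadjusted p of less than 0.01. Where groups are said not to overlap, the share of all loci that separate in this way was not counted. Such statements describe the values only.

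Astroglial *Gfap* was high in untreated mutant TRAP and low in the other TRAP groups. Control replicates 1, 2 and 3 had 17.0, 44.5 and 22.8 normalized fragments. Untreated mutants had 223.6, 138.6 and 173.9, with no overlap. With rapamycin, controls had 39.3, 10.6 and 33.2 and mutants 32.6, 22.9 and 46.1. These values overlapped each other and the untreated controls, so the order of the low groups, with means of 28.1 ± 14.5, 27.7 ± 15.1 and 33.9 ± 11.7 (SD, n = 3), lies within their spread. The untreated mutant mean was 178.7 ± 42.8 (SD, n = 3). The mutant values rested on 114, 92 and 573 fragments and the lowest treated control on 12 fragments, whose exact Poisson interval of 95% runs from 6.2 to 21 and covers counting error only.

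*Apoe* was likewise highest in untreated mutants. Controls had 59.6, 108.4 and 32.3 normalized fragments and untreated mutants 262.9, 219.8 and 203.4. With rapamycin, controls had 77.9, 38.9 and 62.8 and mutants 50.9, 28.7 and 105.3. Again the untreated mutants lay above all other TRAP libraries and the other groups overlapped. Across the 12 TRAP libraries the log2 values of *Gfap* and *Apoe* had a Pearson r of 0.92, a description in which the group differences and the libraries are shared.

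**Figure D1:**
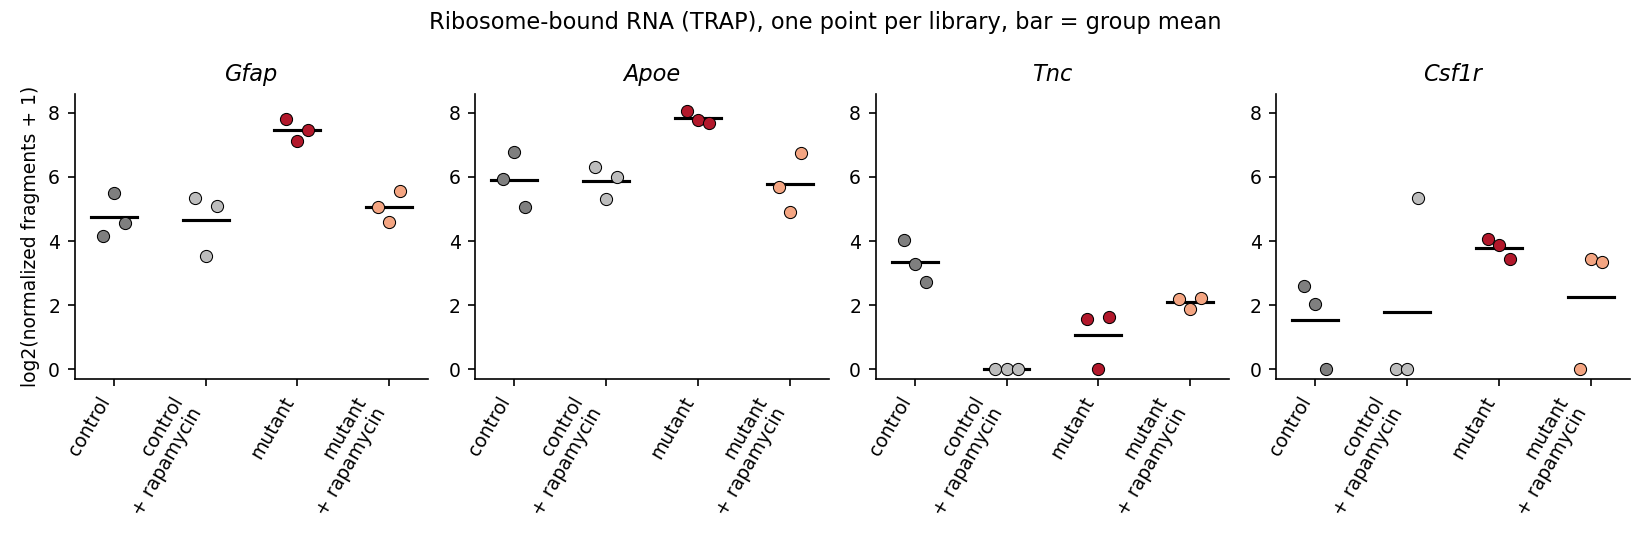
TRAP values of the 4 genes on a log2(normalized fragments + 1) axis, with 1 point per library and a bar at the group mean of 3. *Gfap* and *Apoe* are highest in all 3 untreated mutants, *Tnc* is at 0 in all 3 treated controls, and a single treated control at 39.99 carries that group's *Csf1r*.

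Without rapamycin, the mutant-minus-control TRAP difference was 2.71 ± 0.45 (SE) for *Gfap* and 1.92 ± 0.49 for *Apoe*. Both were past the thresholds on the higher side, where 0.942% of 9658 loci tested lay, a count from which nothing is read because this contrast chose the genes. *Apoe* was not past them without control 1 (1.92 ± 0.58) or mutant 1 (1.81 ± 0.59), 2 (1.94 ± 0.60) or 3 (2.00 ± 0.60), nor with libraries scaled to equal totals (2.32 ± 1.09). In the mutants, the difference with rapamycin was -2.39 ± 0.39 for *Gfap* and -2.06 ± 0.50 for *Apoe*, both past the thresholds on the lower side with 1.27% of 9664 loci. *Apoe* was not past them without treated mutant 1 (-2.02 ± 0.61) or untreated mutant 1 (-1.96 ± 0.61), 2 (-2.09 ± 0.62) or 3 (-2.14 ± 0.62), nor with the replicate number as a term (-2.06 ± 0.52). The groups did not overlap, but the untreated arm helped to choose the genes and no p is given. In controls, the rapamycin difference was -0.10 ± 0.73 for *Gfap* and -0.05 ± 0.67 for *Apoe*, and 0 of 2 were past the thresholds beside 1.05% of 8682 loci. The interval of 95% ran from -1.84 to 1.65 for *Gfap* and from -1.65 to 1.56 for *Apoe*, so changes of over 2-fold either way were not resolved. The rapamycin difference of mutants minus that of controls was -2.30 ± 0.82 for *Gfap* and -2.02 ± 0.83 for *Apoe*.

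Mutants and controls under rapamycin, the comparison on which the supplementary lists were not built, showed no detectable difference in the 3 genes that passed the filter. *Tnc* did not pass it, and is described below. Since the genes were chosen with results of these libraries known, its p is no independent test. It was 0.41 for *Gfap* (interval -1.24 to 2.07, limma adjusted p = 0.914), with 2 of 3 mutants above the control mean. It was -0.10 for *Apoe* (interval -1.72 to 1.52, limma adjusted p = 0.984), with 1 of 3 above, and 0.48 for *Csf1r* (interval -3.64 to 4.60, limma adjusted p = 0.964). The sign for *Csf1r* was not stable. It was -0.13 with a pseudocount of 10, 1.51 with 0.1, and -0.41 without treated control 1 or without treated control 2. The mean values went the other way, at 6.39 in treated mutants and 13.33 in treated controls. Of the 3 genes tested 0 were past the thresholds, beside 1.23% of 8728 loci. Over all loci limma found 1 at an adjusted p under 0.05 and 480 at an unadjusted p under 0.05. At this depth the intervals also hold changes of 2-fold, so that equal levels are not shown.

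**Figure D2:**
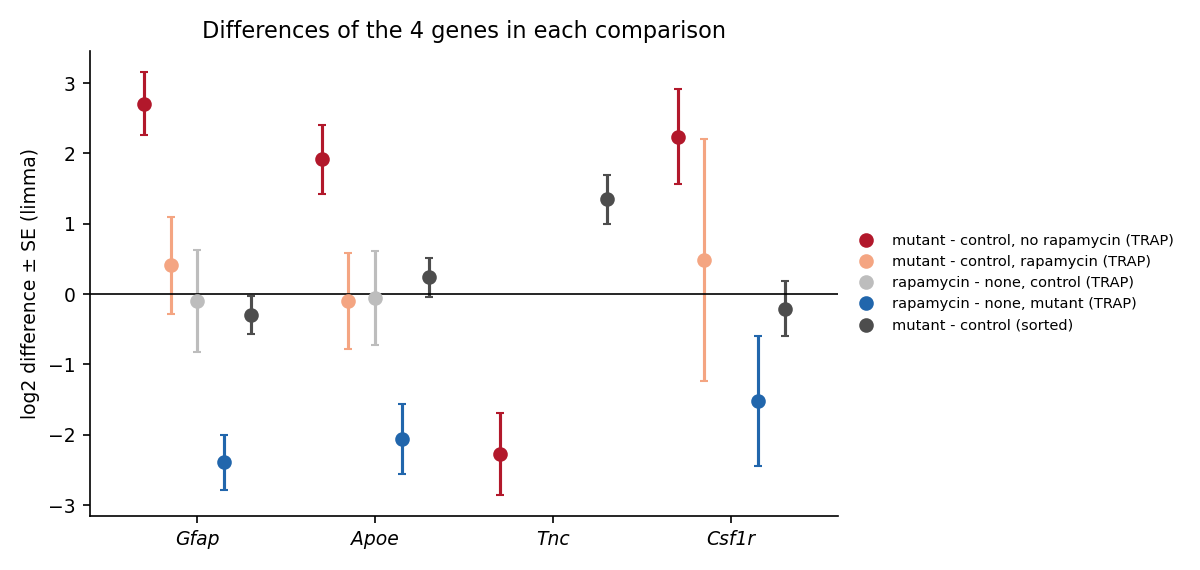
Log2 differences ± SE from limma for each of the 4 genes in the 4 TRAP comparisons and the sorted comparison, where a gene without a point did not pass the filter on low values. The untreated mutant differences of *Gfap* (2.71) and *Apoe* (1.92) stand beside rapamycin differences in mutants of -2.39 and -2.06 and values near 0 in the treated genotype comparison.

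*Csf1r* was close to the limit of detection in TRAP. Controls had 5.11, 3.14 and 0 normalized fragments and untreated mutants 15.7, 13.6 and 9.93. Treated mutants had 0, 9.93 and 9.23, so their highest library reached 9.929 against the lowest untreated mutant at 9.931. Treated controls were listed at 0 in replicates 1 and 2 and at 39.99, or 65 fragments, in replicate 3, the highest of the 12. The genotype difference without rapamycin was 2.24 ± 0.68 and was not past the thresholds, but it was without control 1 (2.77 ± 0.65) or 3 (1.46 ± 0.38), with scaling to the PC markers (2.43 ± 0.66) and with the replicate number as a term (2.24 ± 0.53). In mutants the rapamycin difference was -1.52 ± 0.92, which was -0.39 ± 0.38 without treated mutant 1, the library listed at 0, and in controls the gene did not pass the filter.

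*Tnc* went the other way from *Gfap* in TRAP. Controls had 15.3, 8.78 and 5.57 normalized fragments, from 18, 14 and 10 fragments, and untreated mutants 1.96, 0 and 2.12, from 1, 0 and 7. All treated controls were listed at 0, and treated mutants had 3.62, 2.695 and 3.69, from 2 fragments each. The untreated genotype difference was -2.27 ± 0.58, past the thresholds on the lower side with 1.01% of loci, and the groups did not overlap. It was not past them without mutant 2 (-1.74 ± 0.53) or when libraries were scaled to equal totals (-1.80 ± 1.09) or to the PC markers (-2.07 ± 0.60), nor with an intensity trend in eBayes (-2.27 ± 0.89) or a pseudocount of 10 (-0.78 ± 0.29) or 0.1 (-3.58 ± 1.28), and without control 1 or 2 the gene did not pass the filter. As a share of all fragments this order was lost, since untreated mutant replicate 3 had 2.47 per M against 3.67, 2.45 and 1.57 in controls. In that library PC markers too were high per M, at 12090 against 3362 to 4009 in controls. Relative to the summed PC markers used below, untreated mutants had 0.0175%, 0% and 0.0204% of *Tnc*. Controls had 0.109%, 0.0724% and 0.0391%, without overlap. In the comparisons with rapamycin *Tnc* did not pass the filter with all libraries. It passed for controls without treated control 1 (-3.34 ± 0.61), 2 (-3.34 ± 0.65) or 3 (-3.34 ± 0.64), past the thresholds each time. With no filter it was past them for rapamycin in controls (-3.34 ± 0.50) and for treated genotypes (2.11 ± 0.46), and not for rapamycin in mutants (1.04). Against a group listed at 0 such values depend on the pseudocount, so their size is not read. The genes most like it over the 12 libraries, *Rad50* (r = 0.906), *Sec22a* (0.842) and *Hspa5* (0.813), include 2 that were also listed at 0 in all 3 treated controls, the group with the fewest loci above 0. The part of that lower detection in the *Tnc* zeros was not tested.

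Among 940 named loci compared, those most like *Gfap* were *Pak1* (r = 0.947), *Uspl1* (0.942) and *Apoe*. Those most like *Apoe* were *Gfap*, *Uspl1* (0.906) and *Pak1* (0.893). *Pak1*, a kinase of cytoskeletal signalling, had means of 127, 110, 269 and 126 normalized fragments in controls, treated controls, mutants and treated mutants. Those most like *Csf1r* were *Pcmtd1* (0.868), *Slc5a6* (0.822) and *Myo5a* (0.81).

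Lists of glial markers show what the TRAP libraries held. The astroglial list includes *Gfap*, *Apoe* and *Tnc* and the microglial list *Csf1r*, so their sums partly restate the values above. The lists were written from symbols in the study's supplementary lists, so all their genes were picked from these libraries and their directions are not independent evidence. For each library the summed values of a list were divided by the summed values of 15 PC markers, which summed to 9640 to 14240 normalized fragments. The 15 astroglial genes summed to 14.4%, 18.1% and 11.02% of the PC markers in controls and to 29.2%, 24.4% and 33.8% in untreated mutants. With rapamycin the sums were 10.6%, 12.2% and 14.1% in controls and 15.8%, 19.1% and 16.3% in mutants. *Aldoc*, an aldolase that PCs also make, made up 80.4% to 93.4% of the astroglial sum in the 12 libraries, with 2680, 2355 and 2999 normalized fragments in untreated mutants against 1851, 1924 and 1414 in controls. The metallothionein gene *Mt1* differed by 1.56 ± 0.46 between untreated genotypes, with no overlap, and the Hedgehog receptor gene *Ptch1* by -0.46 ± 0.35. The proteoglycan gene *Bcan* differed by -0.71 ± 0.34, with the same directions under each scaling tried. Of 8 that passed the filter, *Gfap* and *Apoe* were past the thresholds on the higher side and *Tnc* on the lower, beside 0.942% and 1.01% of all loci, in the contrast that chose them. The median difference of 0.09 lay near the 0.07 of all loci, as did 0.48 beside 0.47 at equal totals.

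The 26 microglial genes were nearly absent from control TRAP. They summed to 6, 26 and 1 fragments there, the 6 all from *Csf1r*. In untreated mutants they summed to 72, 50 and 247, and 19, 17 and 26 of them reached 0.5 fragment. In treated mutants the sums were 8, 10 and 17 fragments. Relative to the PC markers, untreated mutants had 1.26%, 0.648% and 0.719%, controls 0.0364%, 0.134% and 0.00391%, and treated mutants 0.134%, 0.117% and 0.264%. Treated controls had 0.256%, 0.376% and 0.65%, mostly from few genes, as *Hcls1* in replicate 1, *Lair1* in replicate 2 and *Csf1r* in replicate 3 led the list. Only *Csf1r* passed the filter in the untreated genotype comparison. The 4 with the highest TRAP means beside it were *Fyb*, *Hcls1*, *Cebpa* and *C1qc*, none of which exceeded 21.1 normalized fragments in any library. Fewer cells of a type and less RNA per cell cannot be told apart in such libraries, nor can RNA carried over from the lysate of the whole cerebellum, and the part of any of these in the *Gfap* and *Apoe* values was not tested.

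**Figure D3:**
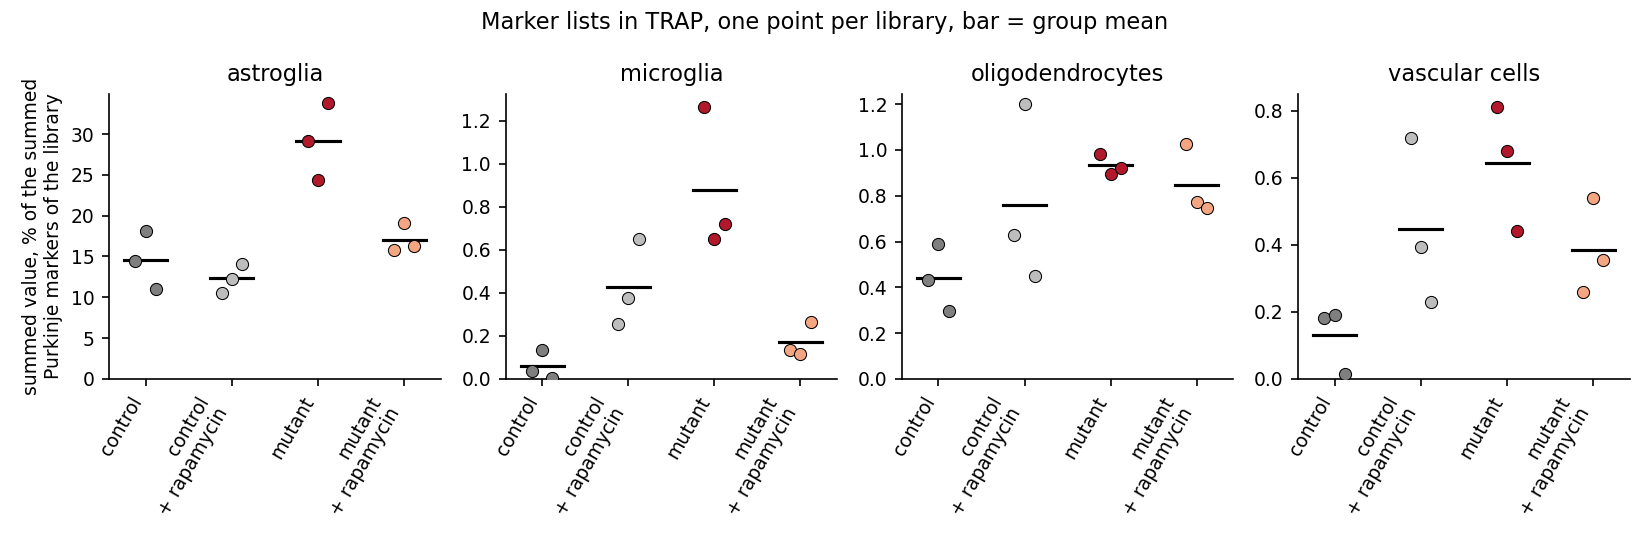
Summed values of the astroglial, microglial, oligodendrocyte and vascular lists as a percentage of the summed PC markers of the same TRAP library, with 1 point per library and a bar at the group mean. Astroglial sums are 24.4% to 33.8% in untreated mutants and at most 19.1% elsewhere, with *Aldoc* as their main part, and the untreated mutants overlap other groups for microglia (0.648% against 0.65% in a treated control), oligodendrocytes and vascular cells.

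Markers of other cells were given beside them. The 7 oligodendrocyte genes, led by *Sirt2*, summed to 0.431%, 0.589% and 0.297% of the PC markers in controls and 0.982%, 0.894% and 0.921% in untreated mutants, and to 0.745% to 1.02% in treated mutants. Treated controls, at 0.63%, 1.201% and 0.451%, spanned the mutant values. Among them *Tmem88b* differed by 1.49 ± 0.49 and *Padi2* by 1.75 ± 0.71 between untreated genotypes, and *Tmem144* did not pass the filter. The 12 vascular genes summed to 0.0156% to 0.191% in controls and 0.441% to 0.811% in untreated mutants. With rapamycin they came to 0.718%, 0.394% and 0.228% in controls and 0.26%, 0.54% and 0.356% in mutants, above the untreated controls and partly within the range of untreated mutants. *Adcy4*, an adenylyl cyclase gene of endothelium, was at 47.1, 21.1 and 13.7 normalized fragments in untreated mutants and at 0 in all treated mutants, and in controls at 0, 1.255 and 0. *Epas1* differed by 0.64 ± 0.79, and *Adgra2* and *Cavin1* did not pass the filter. The 7 ependymal genes, of which *Wdr78* had the highest TRAP mean, summed to 0, 2.509 and 2.784 normalized fragments in controls and 5.885, 6.024 and 10.01 in untreated mutants. With rapamycin they summed to 0, 0 and 1.23 in controls and 1.809, 6.738 and 5.537 in mutants. Among PC markers, untreated mutants had 1481, 1503 and 1426 of *Itpr1*, the IP3 receptor gene, against 3328, 3171 and 2563 in controls, while *Car8* (-0.18 ± 0.33), *Rgs8* (-0.39 ± 0.34) and *Pcp2* (0.04 ± 0.35) differed by about their SE or less, with *Car8* at 0.22 and *Rgs8* at 0.01 at equal totals. Scaling to the PC marker sum, an alternative chosen after the data were seen, gave 2.98 ± 0.49 for *Gfap* and 2.19 ± 0.53 for *Apoe* between untreated genotypes. That sum was itself lower in untreated mutants (10407 to 11624) than in untreated controls (12136 to 14240), which raises shares of it in the former. In treated mutants it was 10767 to 11894, with *Itpr1* at 2684 to 3714.

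*Tnc* was also set beside other matrix genes. Of the 17 on that list, 5 passed the filter in the untreated TRAP comparison. *Tnc* alone was past the thresholds, beside 0.942% of all loci on the higher and 1.01% on the lower side, in the contrast that chose it, and the median was -0.96 beside 0.07 for all loci. Under rapamycin 0 of 2 were past them, beside 1.23% of all loci, from which nothing is read. In treated mutants the astroglial *Itih3*, which encodes a hyaluronan-binding chain, was past the thresholds on the higher side (1.81 ± 0.36), beside 0.476% of loci, and was not at equal totals (1.10). It was singled out after its values were seen.

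In the sorted libraries all 4 glial genes were abundant. Control libraries 144a, 144b, 176, 45 and 48 had 14797, 11281, 9524, 16836 and 26748 normalized fragments of *Gfap*, and mutants 103, 167, 191, 61 and 74 had 10846, 12885, 9786, 14255 and 13044. The mutant-minus-control difference was -0.30 ± 0.27 and the groups overlapped, and without control 48, the highest, it was -0.09 ± 0.21. *Apoe* had a median of 200697 in controls and 230366 in mutants, with a difference of 0.24 ± 0.28, or -0.01 ± 0.18 without control 45. *Csf1r* had medians of 17202 and 17834, and differed by -0.21 ± 0.39, or 0.01 ± 0.38 without control 176. None of these 3 was past the thresholds, beside 0.395% of all loci on the higher and 1.08% on the lower side, and for each the groups overlapped.

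*Tnc*, which the sorted contrast helped to choose, differed more. Mutants had 59071, 37440, 25780, 68570 and 25020 normalized fragments and controls 15280, 14433, 26266, 10493 and 15134. The difference was 1.35 ± 0.35, past the thresholds on the higher side, where 0.395% of 16455 loci lay, but control 176 lay above mutants 191 and 74, so the groups overlapped. Submission numbers split these libraries. Mutants 61, 74 and 103 came from submission MS2723, controls 45, 48 and 144b from MS2872, and only MS3005 held both genotypes, 2 libraries each. Within MS3005 the *Tnc* difference was 0.63 ± 0.39, and with submission as a term 0.63 ± 0.52, and it was not past the thresholds in either fit. With 144a and 144b averaged as 1 control the difference was 1.33 ± 0.39 and past them. The within-MS3005 differences of *Gfap*, *Apoe* and *Csf1r* were -0.08 ± 0.34, -0.34 ± 0.26 and -0.19 ± 0.38.

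**Figure D4:**
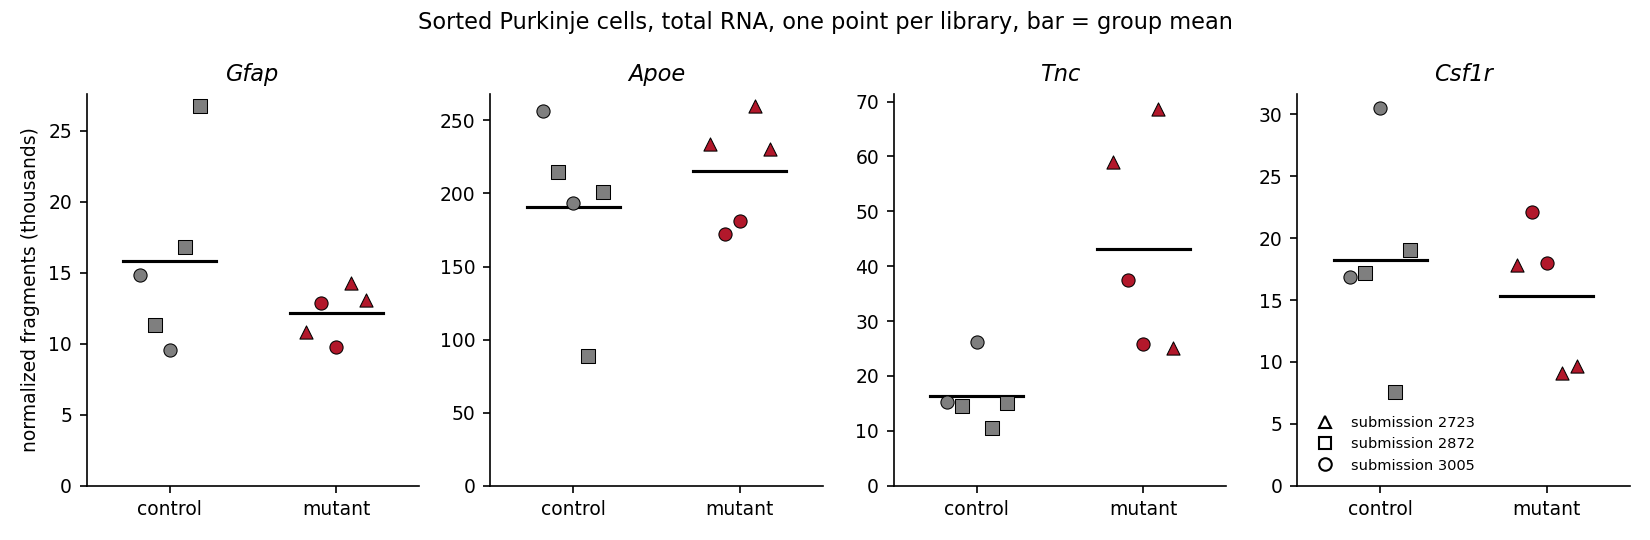
Sorted PC values of the 4 genes in units of 1000 normalized fragments, with 1 point per library, shape by submission number and a bar at the genotype mean of 5. *Tnc* is highest in mutants 61 and 103 of submission MS2723, and the genotypes overlap in every panel.

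The PC markers were low only in mutants 103, 61 and 74, whose submission held no controls. The markers summed to 389217 to 719799 normalized fragments in controls and to 417950 and 389798 in mutants 167 and 191. In mutants 103, 61 and 74 they summed to 57394, 81706 and 135402. *Pcp2* was at 6101 in mutant 103 and at 75545 to 159421 in controls. Astroglial sums did not fall with them, at 585379 to 826881 in mutants and 417214 to 1018397 in controls. They came to 58.0% to 166% of the PC markers in controls to 1413%, 1012% and 575.8% in mutants 103, 61 and 74, and to 140.1% and 203.8% in mutants 167 and 191. Of the 15 astroglial genes, *Tnc*, *Fam181a*, *Ptch1*, *Sox2* and *Luzp2* were past the thresholds on the higher side, beside 0.395% of all loci, and 0 on the lower side, with a median of 0.78 beside 0.03 for all loci. With 1 library left out from 1 (without mutant 61) to 5 were past them, always including *Tnc*, and with submission as a term 0 were, at a median of 0.08. Of 14 PC markers tested, 5 were on the lower side, where 1.08% of loci lay, and the median was -2.34. That count was 10 without mutant 167 and 9 without mutant 191, 3 without mutant 103 or 74 or without control 144a, 144b or 45, and 0 with submission as a term. Of 25 microglial genes tested, 1 was higher and 2 were lower, beside 0.395% and 1.08% of all loci, and of 12 vascular and 6 ependymal genes 2 and 3 were lower. The 7 oligodendrocyte genes had none past the thresholds. Of 11 matrix genes tested, *Tnc* and *Cthrc1* were higher and *Hapln4* was lower, beside the same shares of all loci. Genotype and PC marker content cannot be told apart outside submission MS3005, and the part of PC marker content in the *Tnc* difference was not tested. The part of animal age, which the labels do not give for single libraries, was not tested either.

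**Figure D5:**
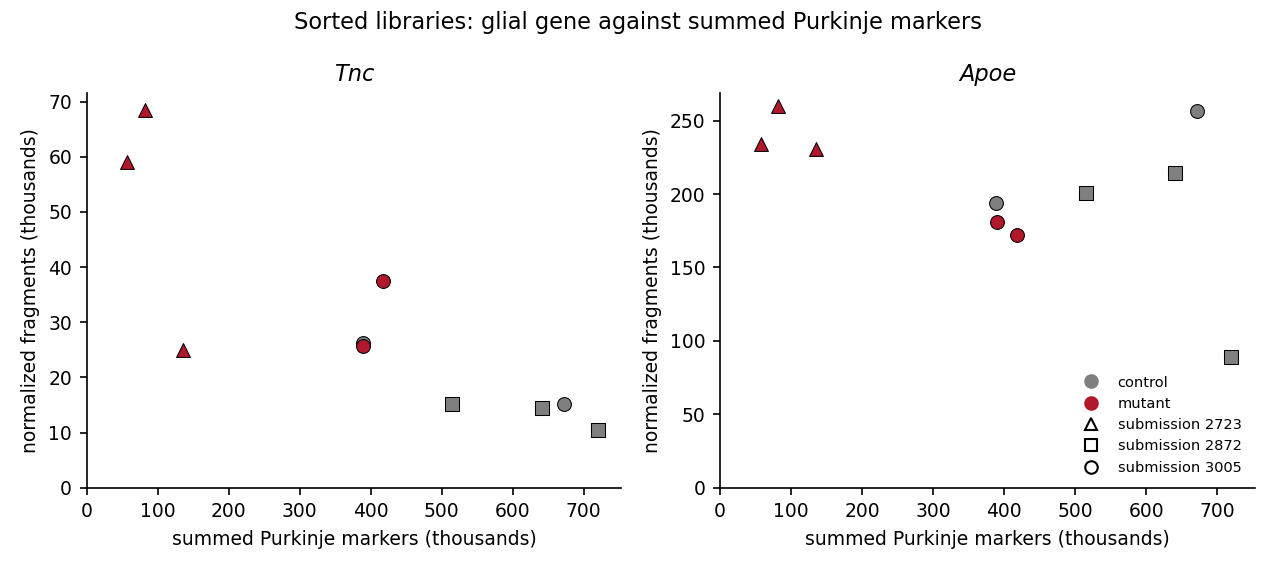
Values of *Tnc* and *Apoe* in each sorted library against the summed PC markers of that library, both in units of 1000 normalized fragments, with colour for genotype and shape for submission number. Mutants of submission MS2723 sit at 57394 to 135402 normalized fragments of PC markers, below the other libraries, and hold the 2 highest *Tnc* values.

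Set as a share of PC markers within a library, the assays differed. *Gfap* came to 1.76% to 5.19% of the summed PC markers in sorted controls and to 0.121%, 0.367% and 0.16% in TRAP controls. In sorted mutants 103, 61 and 74, whose PC markers were low, it came to 18.9%, 17.45% and 9.634%, and in 167 and 191 to 3.083% and 2.511%. *Apoe* came to 12.4% to 49.7% in sorted controls, 41.22% to 407.8% in sorted mutants and 0.227% to 0.893% in TRAP controls. In untreated mutant TRAP, *Gfap* reached 2.0%, 1.19% and 1.67% and in treated mutants 0.302%, 0.193% and 0.388%. The tables were scaled apart and the libraries made by different routes, so that no test was made across them.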

How the data were processed

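The authors trimmed paired-end reads with Trimmomatic 0.39, mapped them to GRCm38 with STAR 2.7.0f and quantified loci of an assembly made with Cufflinks 2.2.1. The deposited values are a signal that the authors made by dividing estimated fragments by 1 size factor per library, with sorted and TRAP tables scaled apart. The most frequent low value was taken as 1 fragment, and 89.2% to 97.1% of low values were whole multiples of it within 0.1. Values under 0.001 of a fragment were read as 0. Groups came from the library labels, and genotype codes from the study's use of them. Values were compared as log2(value + 1) with limma 3.58.1 (lmFit, eBayes, R 4.3.3) over all loci passing the filter, with Benjamini-Hochberg adjusted p. The software was also tested on simulated data, whose outcome is not given here and on which no result rests. Members and lists were chosen with earlier results of these data known. Genes named are the 4, for lists of cell markers up to 4 others with the highest TRAP mean, and for each of the 4 the 3 most correlated loci. Further genes were named after their values were seen, because they were past the thresholds or led a list in a library, or because they overlap one of the 4. Replicate numbers are shared by TRAP groups without a stated pairing. Figures used matplotlib 3.10.9.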

Additional observations from a re-analysis of the deposited data

Results flagged for a closer look

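Astroglial markers in sorted mutant 167 summed to 585379 normalized fragments, well below the other 4 mutants, in 1 of 26 checks on groups of 5, and chance gives about 1 in 20.

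*Gfap* lay below the control mean in all 5 sorted mutants (mean log2 difference -0.30) and above it in all 3 untreated TRAP mutants (2.71). The sorted count rests on control 48, without which the difference was -0.09 and mutants 61, 74 and 167 lay above the control mean. *Tnc* went the opposite way from *Gfap*, above in all 5 sorted mutants (1.35) and below in all 3 TRAP mutants (-2.27). With submission as a term the sorted *Tnc* difference was 0.63 and not past the thresholds. Per M fragments the TRAP order was lost, with untreated mutant 3 at 2.47 against 3.67, 2.45 and 1.57 in controls. As a share of the PC markers that order was kept, with *Tnc* at up to 0.0204% in untreated mutants and at least 0.0391% in controls. The difference between the assays was not tested.

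On the log2(value + 1) scale, *Tnc* lay below the untreated mean in all 3 treated controls (-3.34) and above it in all 3 treated mutants (1.04), and the genotype difference was -2.27 without and 2.11 with rapamycin. Treated controls are listed at 0, so -3.34 and 2.11 depend on the pseudocount and are no bounds. With all libraries the gene did not pass the filter in the comparisons with rapamycin, and it rests on 0 to 18 fragments per library. With no filter -3.34 and 2.11 were past the thresholds and 1.04 was not. Per M fragments untreated mutant 3 (2.47) lay above the treated mutants (0.809, 0.594 and 0.632), so the 1.04 is not a direction on that scale. As a share of the PC markers, treated mutants had 0.0336%, 0.0227% and 0.0310% and untreated mutants 0.0175%, 0% and 0.0204%, from few fragments each. The difference was not tested.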

How the results depend on the processing

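Of 315 member differences under alternatives, 303 were labelled unchanged and 12 moved by more than the spread between libraries. Unchanged meant a smaller shift than that spread, except in the 43 fits of treated genotypes. There it meant that the gene stayed short of the thresholds, and some differences changed sign. No difference that was past the thresholds changed sign. Adjusted p under rapamycin ran from 0.768 to 0.998 for *Gfap* (16 alternatives), 0.892 to 1 for *Apoe* (16) and 0.897 to 0.992 for *Csf1r* (11), which did not pass the filter in 3 of 6 fits without 1 library, with the stricter filter and with scaling to the PC markers.

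At equal totals the rapamycin difference in mutants was -3.17 for *Gfap* and -2.84 for *Apoe*, and its excess over that in controls -3.10 and -2.83. Untreated *Tnc* was -0.78 and *Csf1r* 0.87 with a pseudocount of 10, and -3.58 and 3.44 with 0.1, since the pseudocount weighs most on values near 0. With submission as a term, or in MS3005 alone, sorted *Apoe* was -0.34 and *Tnc* 0.63. With 1 library left out, the rapamycin difference in mutants was -2.64 to -2.15 for *Gfap*, -2.54 to -1.62 for *Apoe* and -2.11 to -0.39 for *Csf1r*, and the excess over controls -2.86 to -1.96, -2.49 to -1.57 and -2.65 to 0.03.

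Counts of loci past the thresholds moved more. Under rapamycin, 107 became 55 (pseudocount 0.1), 475 (no filter), 32 (stricter filter), 64 (replicate block), 435 (all 4 TRAP groups fitted) and 36 to 430 (1 library left out). For rapamycin in controls, 91 became 39, 478, 24, 53 (eBayes trend), 425 (all groups) and 29 to 434. For rapamycin in mutants, 169 became 448 (no filter), 100 (replicate block), 44 (all groups) and 72 to 221. For untreated genotypes, 189 became 88 (equal totals), 501 (no filter), 52 (all groups) and 98 to 354. For sorted PCs, 242 became 711 (no filter), 33 (submission term), 100 (MS3005 alone) and 104 to 530, and was 165 with 144a and 144b averaged. A stricter filter tests fewer loci and MS3005 alone holds fewer libraries, and otherwise the cause was not tested. Replicate numbers did not pair libraries: over 18 pairs r ran from -0.065 to 0.074, and 6 were best with their own number.

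Equal totals moved the median of all loci to -0.08 under rapamycin (from 0.32), -0.81 for rapamycin in mutants (from -0.04) and 0.47 for untreated genotypes (from 0.07), and scaling to the PC markers, chosen after seeing the data, to 0.13, -0.10 and 0.33, and to 0.09 (from -0.31) for rapamycin in controls. Among the loci past the thresholds only, the share on the higher side under rapamycin was 78.5%, and 63.7% (quantile), 47.4% (equal totals) and 64.6% (PC markers). For rapamycin in controls it was 18.7%, 30.9%, 25.9% and 51.2%, in mutants 27.2%, 26.7%, 0.787% and 20.4%, for untreated genotypes 48.1%, 48.5%, 94.3% and 74.9%, and for sorted PCs 26.9%, 32.3% and 37.3%. *Tnc* did not pass the stricter filter or the fit of all groups. Counting error alone is wide at 0 to 20 fragments, which limits *Tnc* and *Csf1r* in TRAP.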
